A study of Mus musculus with 56 samples.

Results

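HDAC2 occupancy was mapped genome-wide by ChIP-seq in wild-type mouse bone marrow-derived macrophages (BMDMs), in cells left untreated (ctrl) and in cells given IL-4 at 20 ng/ml for 1 hr. ChIP-seq cross-links proteins to DNA, recovers one of them with an antibody and sequences the bound DNA, so that a peak marks a stretch of genome where that protein was enriched. All 4 HDAC2 peak lists of the series entered, 2 ctrl and 2 IL-4 samples out of 56 samples in all, with every peak and not only those at sites of the IL-4-activated factor STAT6. Both groups came from bone marrow of mice aged 8 to 12 weeks, differentiated in culture with M-CSF from L929 supernatant, and were fixed with DSG and then with formaldehyde, so that by their labels the groups differed in the cytokine only. The study describes its data as coming from 2 independent biological replicates, and no input or knockout sample for the HDAC2 antibody was used here.

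HDAC2 is a class I histone deacetylase. It removes acetyl groups from histone tails, usually beside its close relative HDAC1 in the Sin3, NuRD and CoREST complexes, whereas HDAC3 works with NCoR. IL-4 acts through its receptor and JAK kinases on STAT6, which enters the nucleus, binds palindromes of TTC and GAA spaced by 4 bases and drives alternative polarization. Deacetylases are known as partners of repressors, yet they are also found at active enhancers together with acetyltransferases such as p300.

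The sequences that the results turn on are shown first. Each is 120 bases of the mm10 reference, plus strand, 5′ to 3′, from a region whose HDAC2 score was higher after IL-4 (Dars, Rmi2, Srf, Tes and Aqp3), that had a peak in both IL-4 samples and neither ctrl sample (Wdr86, St8sia1, Batf and Snn), that had a peak in both ctrl samples only (Dnm2), or whose score was lower (AA545190). Regions carry the name of the gene with the nearest transcription start site (TSS), which need not be the gene they act on. Capitals mark TTCNNNNGAA, the STAT6-type palindrome (N is any base), except in Rmi2, where they mark the shorter spacing TTCNNNGAA, in Dnm2, where they mark the AP-1-type motif TGANTCA, and in AA545190, where they mark a run of the GAATG repeat. Each window is centred on the repeat or on a motif it shows.
Dars chr1:128463569-128463688: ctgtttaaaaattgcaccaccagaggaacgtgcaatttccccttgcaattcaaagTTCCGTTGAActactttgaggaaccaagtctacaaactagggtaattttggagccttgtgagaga
Rmi2 chr16:10844217-10844336: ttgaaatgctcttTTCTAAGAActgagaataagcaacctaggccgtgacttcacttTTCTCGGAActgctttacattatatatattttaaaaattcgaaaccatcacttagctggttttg
Srf chr17:46556507-46556626: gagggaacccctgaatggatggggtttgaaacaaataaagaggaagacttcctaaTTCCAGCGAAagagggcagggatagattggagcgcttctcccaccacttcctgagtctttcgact
Tes chr6:17066011-17066130: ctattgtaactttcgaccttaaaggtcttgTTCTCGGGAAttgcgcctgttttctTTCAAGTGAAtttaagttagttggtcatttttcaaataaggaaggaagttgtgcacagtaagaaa
Aqp3 chr4:41073565-41073684: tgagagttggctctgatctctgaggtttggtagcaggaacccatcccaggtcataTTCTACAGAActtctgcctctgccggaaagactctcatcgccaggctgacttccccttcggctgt
Wdr86 chr5:24739288-24739407: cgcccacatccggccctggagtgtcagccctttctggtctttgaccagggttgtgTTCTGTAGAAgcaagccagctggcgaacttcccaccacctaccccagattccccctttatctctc
St8sia1 chr6:142957417-142957536: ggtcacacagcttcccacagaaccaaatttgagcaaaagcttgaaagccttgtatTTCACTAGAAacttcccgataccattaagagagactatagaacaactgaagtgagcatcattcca
Batf chr12:85673955-85674074: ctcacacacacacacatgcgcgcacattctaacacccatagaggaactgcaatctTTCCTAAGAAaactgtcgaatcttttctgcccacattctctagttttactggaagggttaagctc
Snn chr16:11063127-11063246: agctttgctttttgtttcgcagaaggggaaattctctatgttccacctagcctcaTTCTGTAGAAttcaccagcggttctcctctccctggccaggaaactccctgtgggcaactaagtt
Dnm2 chr9:21457414-21457533: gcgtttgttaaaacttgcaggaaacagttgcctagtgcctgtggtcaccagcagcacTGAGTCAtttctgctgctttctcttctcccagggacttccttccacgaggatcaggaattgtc
AA545190 chr6:10186360-10186479: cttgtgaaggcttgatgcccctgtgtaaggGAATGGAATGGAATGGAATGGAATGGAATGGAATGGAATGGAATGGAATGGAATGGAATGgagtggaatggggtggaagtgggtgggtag

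The 4 HDAC2 lists held 23403 and 20954 peaks in ctrl replicates 1 and 2, and 28017 and 19683 peaks in IL-4 replicates 1 and 2. The IL-4 group thus contained both the longest and the shortest list, and the means of 22178.5 ± 1731.7 and 23850 ± 5893 peaks (SD, n = 2) gave an exact two-sided permutation p = 1, in a design whose smallest possible p is 0.33. The score of a peak is on the −log10 scale of the peak caller (whether for a p- or a q-value is not stated) and rises with sequencing depth, which is unknown. Median scores ran from 6.15 to 6.76 and median peak widths from 274 to 304 bp. Most peaks lay in introns (43.9 to 45.5%) or between genes (38.2 to 40.0%), while promoters took 11.2 and 9.80% in ctrl and 12.9 and 10.2% after IL-4 (exact permutation p = 0.667). Of 10 macrophage markers 8 had an HDAC2 region, among them Csf1r, Irf8 and Mertk, while the defining markers Spi1 and Adgre1 had none assigned to them. Between 1 and 4 genes had a region in each list of T cell, B cell, neutrophil, fibroblast and erythroid markers (7 or 8 genes a list).

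Overlapping peaks of the 4 lists merged into 36991 HDAC2 regions. A peak was present in all 4 samples in 11643 regions (31.5%) and in 1 sample only in 12240 (33.1%), of which IL-4 replicate 1 alone supplied 5481. The stable regions were the stronger and the more distal ones. The median score of regions found in all 4 lists was 9.29 and 7.03% of them lay at promoters, against a median score of 4.38 and 17.5% at promoters for regions seen once. Log2 scores of the shared regions correlated at r = 0.626 between the ctrl samples, at 0.644 between the IL-4 samples and at 0.569 to 0.608 between a ctrl and an IL-4 sample (across regions, which share libraries and are not independent replicates). Samples of different groups thus correlated slightly less than replicates did.

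The first question was at which regions HDAC2 changed. In the 11643 regions with a peak in every sample, the log2 score of each sample was centred on its median and IL-4 was compared with ctrl by limma, with Benjamini-Hochberg adjustment over all of them. The change had a median of −0.02 and an SD of 0.527 over regions, and 94.0% of regions lay within 1 log2 unit of 0. HDAC2 rose at 23 regions (0.198% of those tested) and fell at 3 (0.0258%). At an unadjusted p of at most 0.05, 533 regions were higher (4.58%) and 438 lower (3.76%). In data simulated on these samples the same test found 88% of regions changed by 2 log2 units but only 18% of those changed by 1. There the spread depended on the score alone and 157 regions were called, so both shares may be too high for these data. Changes of a doubling were thus mostly below what a pair of samples per group could resolve.

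**Figure D1:**
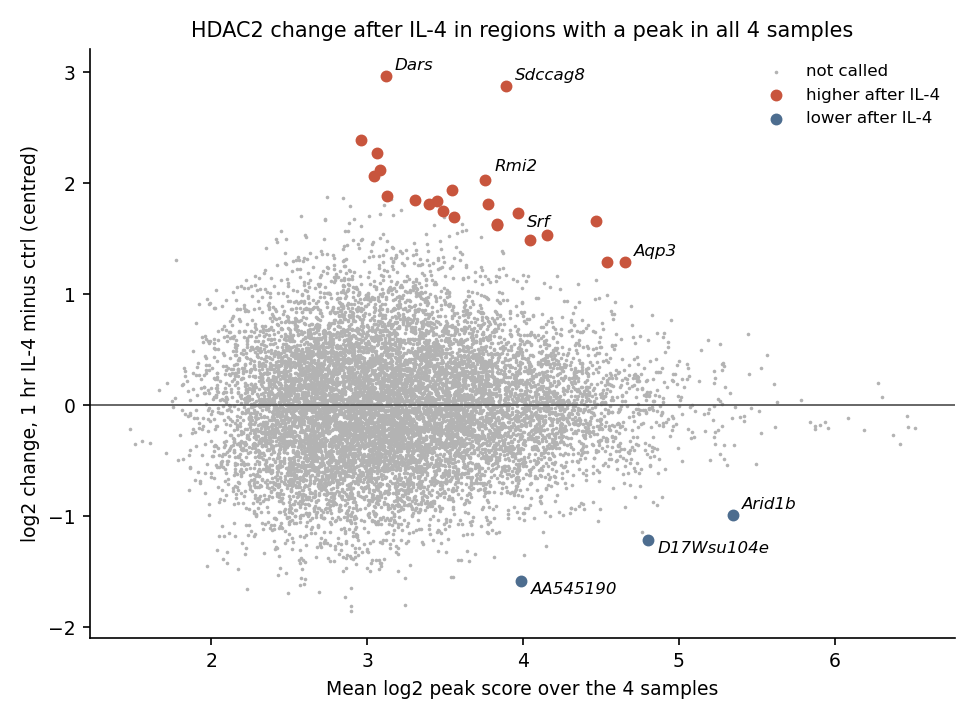
Change of HDAC2 after IL-4 (y axis, log2, IL-4 minus ctrl, each sample centred) against the mean log2 peak score of the 4 samples (x axis) in the 11643 regions with a peak in every sample. Grey points did not pass the test, the 23 red points were higher and the 3 blue points lower at an adjusted p of at most 0.05, and the higher points reach 2.97 at Dars and 2.88 at Sdccag8.

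The largest increase lay 46290 bp upstream of Dars, which encodes an aspartyl-tRNA synthetase, where scores of 3.38 and 2.71 in ctrl became 23.62 and 26.28 after IL-4 (log2 change 2.97 ± 0.48 SE, adjusted p = 9.3e-06). Inside the first intron of Sdccag8, a centrosomal protein gene, 4.58 and 6.17 became 45.06 and 37.73 (2.88 ± 0.40, adjusted p = 2.7e-08). Both were weak peaks in ctrl cells and lay after IL-4 above the 95th percentile of their lists (21.1 and 17.2), and the Sdccag8 region, in an LTR of the MLTR11B family, was called in all 9 other fits of the same regions. At Ptcd2, a mitochondrial RNA-binding protein gene, a region 38280 bp downstream of the TSS went from 3.69 and 2.99 to 22.24 and 15.04 (2.39 ± 0.49, adjusted p = 0.0043). The non-coding RNA gene Gm14005 held an intronic region with 6.06 and 2.28 in ctrl against 20.75 and 17.16 (2.27 ± 0.49, adjusted p = 0.0081). Intron 1 of Nudt2, whose product hydrolyses diadenosine tetraphosphate, had scores of 3.34 and 4.69 against 18.84 and 17.31 (2.12 ± 0.48, adjusted p = 0.018), and intron 1 of St7 had 3.54 and 4.35 against 18.8 and 15.91 (2.07 ± 0.49, adjusted p = 0.029). In each of these regions both IL-4 scores lay far above both ctrl scores.

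A region named after Rmi2, a subunit of the complex that dissolves recombination intermediates, also lay 58.7 kb from the TSS of Socs1, the feedback inhibitor of JAK kinases. It was the widest of the 23 at 802 bp, and its scores of 8.18 and 5.19 in ctrl became 30.63 and 25.51 (log2 change 2.03 ± 0.41 SE, adjusted p = 0.0037). The first intron of Pak2, a kinase acting below Rac and Cdc42, had 4.51 and 4.35 in ctrl and 20.2 and 14.65 after IL-4 (1.88 ± 0.48, adjusted p = 0.047), and the region beside Mtmr3, a phosphoinositide phosphatase gene, had 8.54 and 3.01 against 18.9 and 19.64 (1.85 ± 0.46, adjusted p = 0.044). At Mtmr3 the ctrl samples differed from each other by more than the IL-4 samples did.

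The remaining 13 regions, named after their values were seen, rose by between 1.29 and 1.84 log2 units. They were assigned to Tns3 and Tes, which encode focal adhesion proteins, N4bp1, Tnfaip8, Srf, Mfsd2a, Rcsd1, Pik3r1, BC035044, Cdc42ep3, Ip6k2, Aqp3 and Gm5086. The region at Srf, the transcription factor of cytoskeletal and immediate early genes, was 1 of 3 at a promoter (391 bp upstream of the TSS) and went from 8.62 and 8.10 to 40.54 and 21.00 (1.73 ± 0.39, adjusted p = 0.015). The other promoter regions were at BC035044 (6.80 and 9.18 against 22.78 and 28.97) and Gm5086 (17.12 and 12.23 against 41.02 and 33.73). Intron 1 of Tes had 7.10 and 7.12 in ctrl, nearly equal, and 30.65 and 22.70 after IL-4 (1.82 ± 0.41, adjusted p = 0.015). Pik3r1 encodes the regulatory subunit of PI3K, a kinase that IL-4 receptor signaling engages, and its region, 326135 bp upstream, went from 9.73 and 6.40 to 27.16 and 24.59 (1.64 ± 0.40). Rcsd1, a gene for a CapZ-binding protein, and Aqp3, which encodes a water and glycerol channel, held regions that were already strong in ctrl. Rcsd1 scores rose from 11.46 and 12.84 to 46.34 and 35.05 (1.66 ± 0.33, adjusted p = 0.0037), and Aqp3 scores from 20.25 and 12.10 to 48.37 and 33.70 (1.29 ± 0.32, adjusted p = 0.041). Of all 23 regions, 10 were intronic, 10 intergenic and 3 at promoters.

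**Figure D2:**
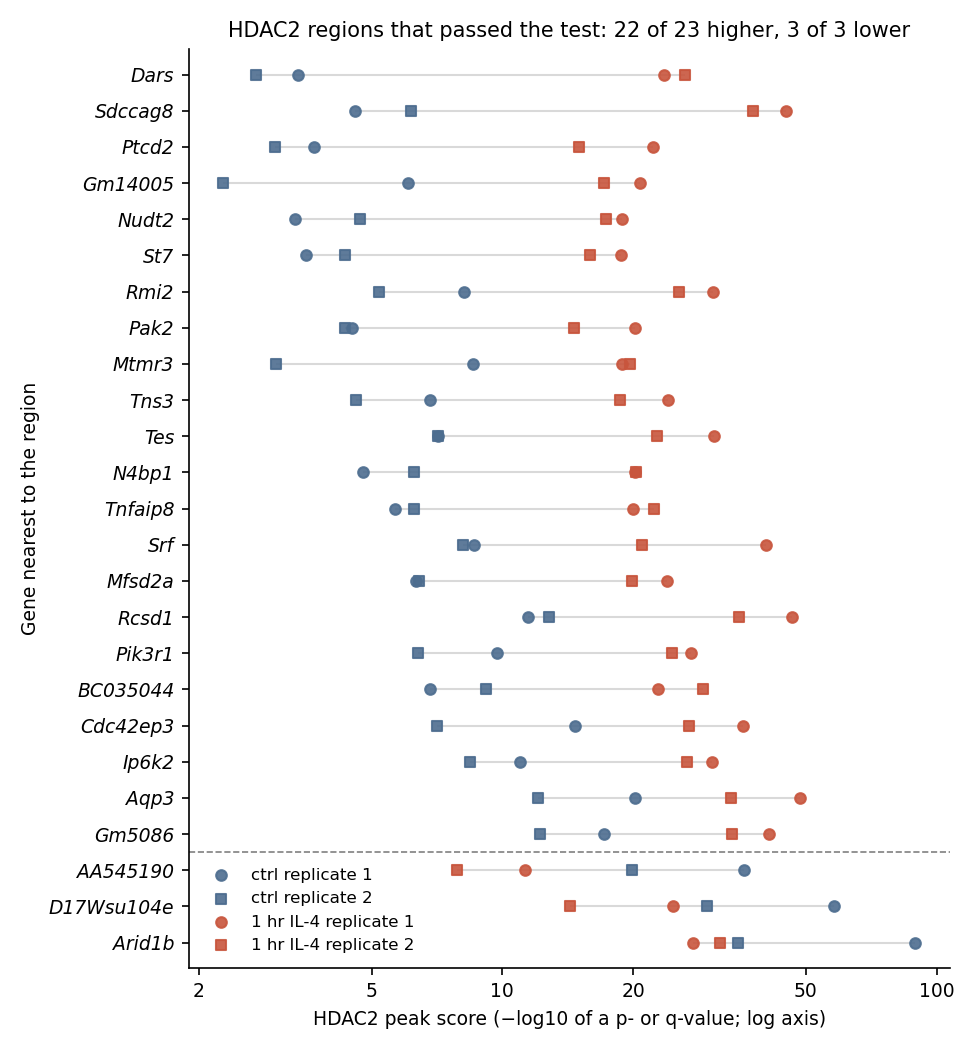
HDAC2 peak score (x axis, log scale) in ctrl replicates 1 and 2 (blue circle and square) and IL-4 replicates 1 and 2 (red circle and square) at 25 of the 26 regions that passed the test, each on a line named by its nearest gene, 22 higher regions above the dashed line and 3 lower ones below it. Both red points lie to the right of both blue points in every one of the 22 higher regions shown, with the widest separation at Dars (3.38 and 2.71 against 23.62 and 26.28).

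These calls leaned on all 4 samples. Leaving out ctrl replicate 1 left 8 higher and 0 lower regions (506 and 371 unadjusted), leaving out ctrl replicate 2 left 14 and 3, leaving out IL-4 replicate 1 left 2 and 2, and leaving out IL-4 replicate 2 left 1 and 1. Without the centring, 2 were higher and 0 lower (394 and 169 at an unadjusted p of at most 0.05). No region among the 26 changed direction in any of the 9 other fits. Those fits used the same samples and the regions were picked for large changes. A reversal was therefore unlikely from the start, and the kept direction is no measure of stability.

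The 3 regions at which HDAC2 fell were of a different kind. They were assigned to AA545190 (36.05 and 19.85 in ctrl, 11.26 and 7.88 after IL-4, log2 change −1.58 ± 0.39 SE, adjusted p = 0.041), D17Wsu104e (57.92 and 29.55 against 24.75 and 14.31, −1.21 ± 0.30, adjusted p = 0.043) and Arid1b (89.35 and 34.83 against 27.51 and 31.73, −0.99 ± 0.25, adjusted p = 0.0497). Each lay on a (CATTC)n or (GAATG)n repeat, 2 of them intergenic and far from the named TSS (787958 and 368682 bp), and at Arid1b the decrease came mainly from a high score in ctrl replicate 1. All 18 HDAC2 regions on this repeat had a peak in ctrl replicate 1, 13 in ctrl replicate 2, 11 in IL-4 replicate 1 and 8 in IL-4 replicate 2, and 7 of the 8 with a peak in every sample had a negative change (median −1.06). Over the same repeat HDAC1 gave a median change of −0.09 (5 of 7 negative) and the libraries labelled HDAC3 one of −0.30 (10 of 12 negative). No region outside this repeat was called lower, and without the peaks on it 18 regions were higher and 0 lower (531 and 435 unadjusted). The nearest was 43217 bp upstream of Setd7, a lysine methyltransferase gene, with 20.45 and 14.49 in ctrl and 10.83 and 2.49 after IL-4 (−1.80, adjusted p = 0.058), and a region 5094 bp upstream of Ralgapa2 (19.80 and 9.63 against 3.88 and 4.17, adjusted p = 0.077) did not pass either. Just inside the threshold stood Arid1b, and just outside it an intron of Ctnnd2, higher by 1.86 with an adjusted p of 0.0506.

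Regions seen in 1 group only have no score in the other and were counted, not tested. A peak in both IL-4 samples and neither ctrl sample was found at 1850 regions (5%), here called gained, and the reverse at 1123 (3.04%), here called lost. Mixed pairs of 1 ctrl and 1 IL-4 sample also occurred. Ctrl replicate 1 with IL-4 replicate 1 held 2044 regions (5.53%) and with IL-4 replicate 2 held 523 (1.41%). Ctrl replicate 2 with IL-4 replicate 1 held 1286 (3.48%) and with IL-4 replicate 2 held 366 (0.989%). Whether gained and lost regions outnumber such pairs was not tested. With the same number of top peaks taken from each list there were 1554 gained and 1291 lost regions, and with 1 sample left out at a time gained regions numbered 3671 (without ctrl replicate 1), 2914 (without ctrl replicate 2), 3468 (without IL-4 replicate 1) and 7331 (without IL-4 replicate 2), and lost regions 3302, 4085, 3635 and 1642.

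The strongest gained region lay 8673 bp upstream of Wdr86 (30.02 and 19.87 in the IL-4 samples, no peak in ctrl), followed by intron 1 of St8sia1, a sialyltransferase gene of ganglioside synthesis (22.88 and 25.31). Next came introns of Rad23b, a DNA repair factor gene (25.04 and 20.04), Pip4k2a, a phosphoinositide kinase gene (22.95 and 20.05), and Ppp2r3a, a regulatory subunit of protein phosphatase PP2A (26.84 and 13.81). The 10 highest also held regions near Sptbn1, Phox2a, Snd1 and Atg16l1, which encodes a core protein of autophagy (18.77 and 18.54). Lost regions reached lower scores. The highest was in intron 1 of Dnm2, a GTPase of endocytosis (13.51 and 16.40 in ctrl), then at the 3′ end of a transcript but assigned to Furin, a proprotein convertase gene (12.02 and 17.32), and in the list of 10 that also named Nav1, Lsm14a, Dfna5, Nid2, Spag9 and Slc8a1, 2 regions (1500009L16Rik and Siglech) again lay on (CATTC)n or (GAATG)n repeats. Median scores were 5.65 for gained and 5.14 for lost regions, close to the median of 5.80 over all regions.

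What the changed regions shared in sequence was then examined, on both strands, in 300 bp around the centre of each region's highest-scoring peak. TTCNNNNGAA was present in 17 of the 23 higher regions (73.9%), in 36.3% of gained regions (671 of 1850, 95% Wilson interval 34.1 to 38.5%) and in 4.01% of lost regions (45 of 1123, 3.01 to 5.32%), against 11.8% of all HDAC2 regions and 11.6% of those with a peak in every sample. In the 11643 shared regions, sorted by their change and divided into 10 groups of equal size, the share with this palindrome was higher at each step, from 6.27% in the most lowered group to 26.4% in the most raised one, while the 10 groups had median scores between 8.55 and 9.62. Among gained regions the share was 21.4, 28.4, 36.8 and 58.5% in 4 groups from the lowest to the highest score, and among lost regions it was 3.20 to 5.36% in such groups. Of the 10 strongest gained regions 9 had the palindrome, Rad23b being the exception, and none of the 10 strongest lost regions had it. Of the palindromes in gained regions 52.7% lay within 50 bp of that peak centre (42.9% over all regions). In the higher regions 8 of 19 did (42.1%), near the share over all regions, and in those with a peak in every sample 39.0%.

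The shorter palindrome TTCNNNGAA, which is counted apart and may overlap the longer one, was found in 17.4% of higher, 17.5% of gained, 6.5% of lost and 10.9% of all regions. One or the other was present in 19 of the 23 higher regions. Neither was present at Sdccag8, Mtmr3, Rcsd1 and Gm5086, which says only that these letters are not in the window. The AP-1-type motif TGANTCA was in 16.8% of gained, 25% of lost and 17.7% of all regions, and the PU.1-type motif GAGGAAGT was in 12.2% of gained, 13.4% of lost and 14.9% of all regions. The share of gained regions with TTCNNNNGAA was 37.1% when only peaks with a score of at least 5 were used and 37.6% with lists of equal length, and it was between 20.6 and 28.8% when 1 sample was left out, which admits regions resting on a single list in 1 group. The share of lost regions lay between 3.92 and 5.34% in these settings.

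**Figure D3:**
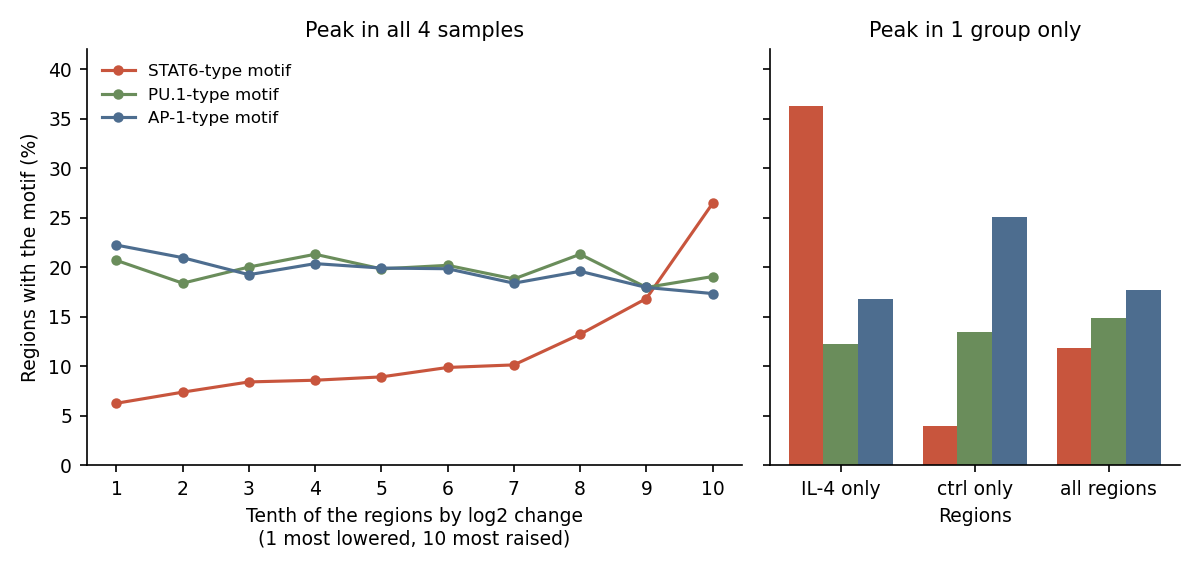
Share of HDAC2 regions with a motif in the 300 bp around the centre of their highest-scoring peak (y axis, percent), left for the 11643 regions with a peak in every sample in 10 equal groups by log2 change, right for the 1850 regions with a peak in both IL-4 samples only, the 1123 with a peak in both ctrl samples only and all 36991. The STAT6-type share (TTCNNNNGAA) climbs from 6.27 to 26.4% across the 10 groups and differs between IL-4-only (36.3%) and ctrl-only regions (4.01%), while the AP-1-type share is 16.8 and 25% and the PU.1-type share 12.2 and 13.4%.

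HDAC2 at genes of the IL-4 response was followed through a list of 32 genes, 28 of which had 191 HDAC2 regions. Over all tested regions 0.198% were called higher and 0.0258% lower, so a list this short would hold few or no calls. None of the 94 regions with a peak in every sample was called after adjustment. At an unadjusted p of at most 0.05, 10 were higher (10.6%) and 3 lower (3.19%), against 4.58 and 3.76% of all regions, their median change was 0.00, and 15 of the 191 regions were gained (7.85%) and 0 lost, against 5 and 3.04%. The gene with most of these was Socs1. Its region 90317 bp downstream had scores of 3.87 and 4.37 in ctrl and 15.64 and 12.33 after IL-4 (log2 difference 1.68 ± 0.50 SE, unadjusted p = 0.00078, adjusted p = 0.16), and 4 further regions, from 40019 to 82992 bp downstream, were gained. Pdcd1lg2, the gene of the checkpoint ligand PD-L2, had a gained region at its promoter (11.59 and 3.09), a second one in an intron (10.95 and 5.63) and a shared region 7922 bp upstream with 5.61 and 6.30 against 19.26 and 8.96 (difference 1.07, adjusted p = 0.52). Arg1, the arginase that marks alternative polarization, had a weak gained peak 700 bp upstream of its TSS (4.46 and 2.96). Its stronger regions with a peak in every sample changed by 0.43, −0.43 and −0.26 (adjusted p 0.83 to 0.91). The lectin gene Mgl2 had a gained peak 15647 bp upstream (13.63 and 6.17), and Irf4, a transcription factor of the IL-4 program, one 4572 bp upstream (9.70 and 6.88). The promoter of Tfec, a MiT family transcription factor gene, had 6.56 and 8.13 in ctrl against 20.87 and 19.21 (difference 1.38 ± 0.43, unadjusted p = 0.0014, adjusted p = 0.22), and an intron of the cyclooxygenase gene Ptgs1 had 8.82 and 12.18 against 23.36 and 25.87 (1.17, adjusted p = 0.28). In contrast, the mannose receptor gene Mrc1 had an intronic region with 17.76 and 7.70 in ctrl and 7.26 and 4.82 after IL-4 (difference −1.06, adjusted p = 0.55). Outside this list, Batf, an AP-1 family factor gene, had a gained region 12609 bp upstream (12.68 and 17.44), and Snn one 3025 bp upstream (18.66 and 14.14). The Batf regions with a peak in every sample changed by −0.45, −0.55 and −0.28 (adjusted p 0.80 to 0.91).

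At 36 inflammatory genes, 35 of which had 167 HDAC2 regions, no region was called either, against 0.198% higher and 0.0258% lower of all tested regions. Of the 68 tested, 2 were higher (2.94%) and 5 lower (7.35%) at an unadjusted p of at most 0.05, against 4.58 and 3.76% of all regions, 7 of the 167 were gained (4.19%) and 3 lost (1.80%), against 5 and 3.04%, and the median change was −0.06. The lower ones were near genes of cytokines and of NF-κB feedback. A region 38259 bp upstream of Tnfaip3, the A20 inhibitor of NF-κB, had 10.87 and 7.09 in ctrl and 3.11 and 3.62 after IL-4 (difference −1.46, adjusted p = 0.31). For the chemokine gene Ccl3, the region 9015 bp downstream had 16.11 and 10.97 against 6.83 and 4.18 (−1.39, adjusted p = 0.30), whereas the region 6467 bp upstream had 14.12 and 11.54 against 30.21 and 25.67 (1.05, adjusted p = 0.30), so that neighbouring HDAC2 regions of 1 gene had opposite signs. Upstream of Cxcl1 by 29161 bp, 12.49 and 10.36 stood against 5.91 and 3.76 (−1.34, adjusted p = 0.34), and upstream of Il1b by 9314 bp, 10.03 and 9.73 stood against 7.58 and 2.59 (−1.23, adjusted p = 0.44). The Tnf promoter peak (4.55 and 5.11 in ctrl) was not called in either IL-4 sample. Nlrp3, the inflammasome sensor, had a gained region 4084 bp upstream (13.92 and 4.70), and Il6 one 19322 bp upstream (10.81 and 7.27). The remaining lists showed no called region, and at the share called over all tested regions lists of such length would hold few or none. At an unadjusted p of at most 0.05 higher and lower regions numbered 3 and 1 of 48 for STAT and JAK signalling, 4 and 4 of 86 for immediate early and AP-1 genes, 2 and 2 of 79 for macrophage lineage factors, 0 and 2 of 33 for subunits of the class I HDAC complexes, 2 and 0 of 15 for acetyltransferases and BET proteins and 0 and 0 of 4 for housekeeping genes. Over all tested regions 4.58% were higher and 3.76% lower, and the lists of STAT and JAK signalling (6.25 and 2.08%), immediate early genes (4.65 and 4.65%) and lineage factors (2.53 and 2.53%) lay near these shares. Among the genes of HDAC complexes, 4 of 112 regions were gained (3.57%) and 1 lost (0.893%), against 5 and 3.04% of all regions. Hdac1 itself gained a promoter peak (3.25 and 6.93), the first score being near the 5th percentile of its list (3.03).

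The wider question was whether HDAC2 was altered at genes whose expression IL-4 changes. The study grouped such genes by expression into clusters A to D, induced by IL-4, and E, repressed. Gained regions made up 12.6% of the 151 HDAC2 regions of cluster A (95% Wilson interval 8.21 to 18.8%), 10.6% of the 744 of cluster B (8.60 to 13%), 8.22% of the 1447 of cluster C (6.92 to 9.75%), 5.13% of the 1326 of cluster D (4.07 to 6.45%) and 2.92% of the 2875 of cluster E (2.37 to 3.60%), against 5% of all regions. Lost regions made up 1.32, 2.55, 1.52, 3.39 and 3.76% in the same order, against 3.04%. The intervals cover counting error only, and regions of 1 gene are not independent. By gene, 13 of the 29 cluster A genes with a region had at least 1 gained region (44.8%), as did 38.4% of cluster B, 35.2% of cluster C, 14.9% of cluster D and 12.9% of cluster E, against 12.6% of all genes with a region. At least 1 lost region was present at 16.8% of cluster E genes, against 8.30% of all genes, a difference that was not tested. The number of regions per gene was 4.72, 4.54, 4.96, 2.65 and 4.60 in clusters A to E, counting genes without a region, and 2.96 over all genes with a region, and its part in the shares by gene was not tested. In 6 other settings, equal list lengths, a score of at least 5 and each sample left out, the gained share of clusters A, B and C lay above and that of cluster E below the share of all regions in 6 of 6, and the lost share of cluster E lay above it in 6 of 6.

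**Figure D4:**
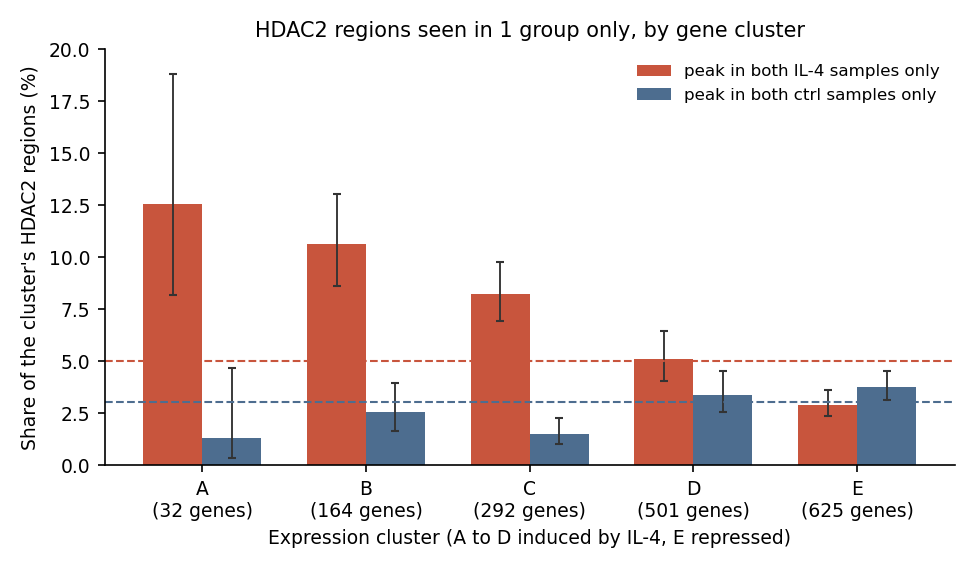
Share of each expression cluster's HDAC2 regions (y axis, percent) that had a peak in both IL-4 samples only (red) or in both ctrl samples only (blue), with 95% Wilson intervals as error bars, the number of genes in each cluster below its letter, and the shares over all regions as dashed lines (5 and 3.04%). The red bars step down from 12.6% in cluster A to 2.92% in cluster E, and the blue bar exceeds the red one in cluster E alone (3.76%).

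In the shared regions the cluster medians lay close to 0. They were 0.03 in cluster A, 0.13 in B, −0.02 in C, −0.02 in D and −0.03 in E, beside −0.02 over all regions. At an unadjusted p of at most 0.05, 10 of 45 cluster A regions were higher (22.2%) and 0 lower, 29 of 280 cluster B regions were higher (10.4%) and 7 lower, 25 of 498 cluster C regions were higher and 28 lower, 25 of 442 cluster D regions were higher and 10 lower, and 30 of 1098 cluster E regions were higher (2.73%) and 43 lower (3.92%). Over all regions 4.58% were higher and 3.76% lower, close to clusters C (5.02 and 5.62%) and D (5.66 and 2.26%). After adjustment 5 regions of cluster B and 1 of cluster C were called higher and none of clusters A, D and E in either direction. Over all tested regions 0.198% were called higher and 0.0258% lower, so clusters of these sizes would hold few or no calls at that share. The 5 calls among the 280 tested regions of cluster B lay above that share, a difference that was not tested. By distance, 8 of the 23 higher regions lay within 100 kb of the TSS of a cluster A to D gene (34.8%, against 18.3% of all HDAC2 regions), among them Socs1, Tes, Aqp3 and St7, and 0 of 23 lay within 100 kb of a cluster E gene (12.7% of all regions).

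HDAC2 was next set beside the other proteins mapped in the same BMDMs with 2 ctrl and 2 IL-4 samples each. The labels give the HDAC3 antibody the catalogue number of the H3K27Ac antibody, and the study's reagent list gives another, so every HDAC3 value here is that of libraries labelled HDAC3. Of their peaks 61.8 to 63.8% overlapped an H3K27Ac peak and 71.1 to 85.9% an HDAC1 peak of the same group and number, while 18.8 to 30.6% of H3K27Ac peaks overlapped one labelled HDAC3. These overlaps do not settle which antibody was used. At gained HDAC2 regions, HDAC1 peaks were present in 41.4 and 33.1% in ctrl and in 54.6 and 49.4% after IL-4, and HDAC3 peaks in 10.1 and 5.51% against 34.1 and 29.0%. Over all HDAC2 regions the HDAC1 shares were 65.9 and 57.9% against 53.0 and 50.2%, in lists of 30511 and 26836 against 23270 and 22340 HDAC1 peaks, and the HDAC3 shares 30.3 and 21.6% against 34.3 and 30.4%. HDAC1 peaks were thus fewer over all regions and more frequent at gained regions after IL-4. PU.1, the lineage factor of macrophages, had peaks at 64.8 and 56.1% of gained regions in ctrl and at 79.7 and 81.4% after IL-4 (over all regions 74.9 and 69.4% against 74.8 and 76.3%). For RNAPII-pS5, the initiating form of RNA polymerase II, the shares were 40.2 and 34.3% against 57.9 and 53.2%, and for H3K27Ac, the acetylation of active enhancers, 43.6 and 44.2% against 56.8 and 56.0%. The RNAPII-pS5 lists held 35424 and 30639 peaks in ctrl against 31883 and 30420, and the H3K27Ac lists 27750 and 27797 against 26995 and 26982. Shares over all HDAC2 regions are not given here for RNAPII-pS5, H3K27Ac and p300. A shift of a whole list was thus not separated from one at gained or lost regions. At lost HDAC2 regions HDAC1 went from 60.7 and 49.5% to 27.5 and 27%, RNAPII-pS5 from 56.9 and 46.2% to 38.1 and 35.1% and H3K27Ac from 54.9 and 55.4% to 47.2 and 47.6%, while HDAC3 ran from 19.3 and 11.8% to 15.0 and 11.8%. The p300 list of ctrl replicate 1 was short (44787 peaks, against 66710 to 69360 in the other 3), and p300 peaks lay at 65.7 and 89.3% of gained regions in ctrl and at 98.1 and 97.9% after IL-4. The median p300 score at HDAC2 regions was 16.8 in that list, against 49.9 to 52.3 in the other 3 lists, and its part in the p300 values was not tested.

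**Figure D5:**
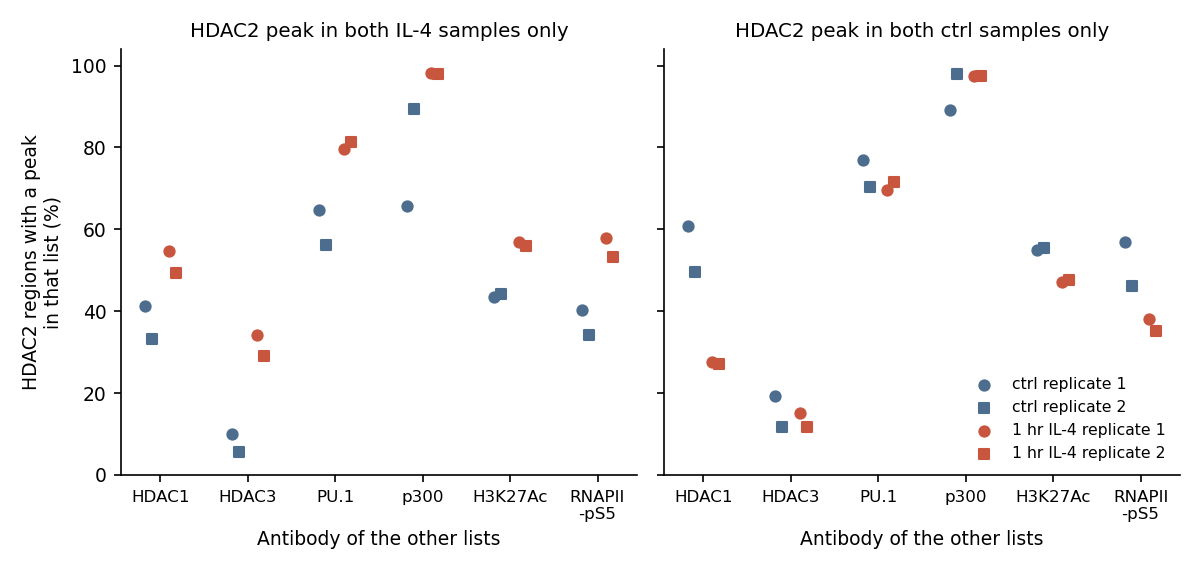
Share of HDAC2 regions (y axis, percent) that overlapped a peak of HDAC1, HDAC3, PU.1, p300, H3K27Ac or RNAPII-pS5 in ctrl replicates 1 and 2 (blue circle and square) and IL-4 replicates 1 and 2 (red circle and square), left for the 1850 regions with an HDAC2 peak in both IL-4 samples only, right for the 1123 with one in both ctrl samples only. On the left every red point lies above both blue points of its antibody, as for HDAC3 (10.1 and 5.51 against 34.1 and 29.0%), and on the right HDAC1 goes from 60.7 and 49.5% to 27.5 and 27%.

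At the 23 regions where HDAC2 rose, the same test run on each protein's own regions called p300 higher at 20 of the 22 with a p300 peak in every sample (14.7% of shared HDAC2 regions), H3K27Ac at 11 of 11 (25.9%), PU.1 at 7 of 22 (1.75%), HDAC1 at 4 of 16 (0.124%), HDAC3 at 2 of 6 (1.73%) and RNAPII-pS5 at 3 of 11 (2.90%), and none of them lower. Their median log2 changes were 1.93 for p300, 1.38 for H3K27Ac, 1.21 for HDAC1, 1.03 for PU.1, 0.82 for HDAC3 and 0.66 for RNAPII-pS5. All 23 regions had an HDAC1 peak in both IL-4 samples. At Srf, HDAC1 scores were 8.34 and 4.25 in ctrl and 19.56 and 15.26 after IL-4, and p300 scores 18.34 and 51.32 against 204.88 and 211.3. At Rmi2, HDAC1 scores were 6.89 and 6.88 against 22.49 and 15.91, HDAC3 scores 4.8 and 6.25 against 27.97 and 36.47, and H3K27Ac was absent in ctrl and reached a signal of 193.4 and 179.1 after IL-4. The median change was above 0 for all 6.

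Whether HDAC2 changed differently from its relatives was tested directly. Against HDAC1, the difference between the IL-4 changes of both proteins was called at 1 of 8126 regions with a peak in all 8 lists (0.0123%), with 449 at an unadjusted p of at most 0.05. This region, named after its value was seen, lay in intron 1 of Gna14 (chr19:16456177-16456611), a G protein subunit gene, where HDAC2 scores of 16.05 and 15.52 became 7.11 and 4.50 while HDAC1 scores of 3.87 and 4.17 became 15.06 and 6.52 (difference −3.20 ± 0.69 SE, 95% interval −4.56 to −1.84, adjusted p = 0.030). The call was lost when any of the 4 HDAC2 samples was left out (adjusted p 0.18 to 0.51) and without 3 of the 4 HDAC1 samples (0.14 to 0.55), and held without HDAC1 IL-4 replicate 2 (0.023). Against HDAC3, 0 of 4809 regions (0%) were called and 310 passed at an unadjusted p of at most 0.05, while 2 were called without HDAC3 ctrl replicate 1. At the regions where HDAC2 rose, its change was the larger in 12 of 16 against HDAC1, with a median difference of 0.38 and a range from −0.59 to 2.10. None of the 16 passed after adjustment (smallest adjusted p = 0.65, 5 at an unadjusted p under 0.05). These regions were picked for their HDAC2 rise, which by itself favours a larger HDAC2 change, so such counts cannot rank the proteins. Intervals were wide. At Rmi2 the HDAC2 change exceeded that of HDAC1 by 0.23 (95% interval −0.96 to 1.41) and at Mtmr3 by 2.10 (0.79 to 3.42). Against HDAC3 the HDAC2 change was larger in 4 of 6, with a median difference of 0.86 (smallest adjusted p = 0.69). The same selection holds here. Regions where the relative had no peak in ctrl did not enter either comparison, as at Dars and Sdccag8 for HDAC1 and at Dars and Pak2 for HDAC3. Each of these had a peak of that relative in both IL-4 samples.

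Finally, the highest-scoring HDAC2 regions were looked at. None of the 10 highest was called, against 0.198% called higher and 0.0258% lower over all tested regions, so 10 regions would hold few or no calls. Of the 10 regions with the highest mean score, 8 lay on the telomere-type repeat (TTAGGG)n, led by a region 26364 bp from Mrgprd with 101.15 and 90.58 in ctrl and 96.02 and 79.91 after IL-4. One more, at Gm5458, was satellite repeat (68.00 and 62.23 against 58.14 and 60.48). The exception was intron 3 of Acvr1b, an activin receptor gene, with 81.22 and 60.87 against 88.12 and 82.54 (log2 difference 0.20 ± 0.18 SE, adjusted p = 0.83). There were 40 HDAC2 regions on (TTAGGG)n, with a median change of −0.17 in the 28 present in every sample. Of the 40, 0 were called, gained or lost, against 5% gained and 3.04% lost over all regions. HDAC1 (median −0.35) and HDAC3 (median −0.46) peaks lay on the same repeat. Without the peaks on these repeats, satellites and mitochondrial DNA, 23 regions were higher and 2 lower.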

How the data were processed

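ChIP-seq reads were aligned by the authors to mm10 with BWA 0.7.10, peaks were called per sample with MACS2 2.0.10 at a q-value cut-off of 0.01, blacklisted regions were removed and peaks were annotated with HOMER 4.2 (versions from the submitters' processing notes, which also name SAMtools 0.1.19). The deposited peak score is a −log10 value, of p or of q is not stated. It holds no read counts, so depth is unknown, no read-based comparison could be made, and scores move with depth. The deposited H3K27Ac signal is a scaled HOMER tag value.

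Peaks of the 4 HDAC2 lists overlapping by at least 1 bp were merged, and a region took the highest score per list. Regions with a peak in all 4 lists were tested with limma 3.58.1 (R 4.3.3) on median-centred log2 scores, with a mean-variance trend, Benjamini-Hochberg adjustment and a threshold of 0.05. Differences between antibodies were tested as interactions over 8 samples. With 2 samples per group each region's spread was estimated largely from all regions. The test was run on simulated data, whose spread depended on the score alone. It called 4 of 11443 unchanged regions there, which may be fewer than in real data. Motifs and sequences were read from the mm10 RefSeq genome with pyfaidx 0.9.0.4. By symbol, 918 cluster A to D and 556 cluster E genes matched the start site of a protein-coding gene in the GENCODE annotation. Intervals and p-values cover the spread between these samples and counting error only.

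Named regions were the 10 with the largest called change in each direction, filled with the smallest p, the 10 strongest gained, lost and in all, and regions of listed genes; others are said to be named after their values were seen. Regions, gene lists and tests were chosen with earlier results of these data known. Other settings of threshold, centring, normalization, score minimum, overlap, merging, promoter definition, replicate block and left-out samples were tried, and settings without repeats, without HDAC1 or HDAC3 samples and for motif shares were chosen after seeing the data. Nothing states that same-numbered ctrl and IL-4 samples were paired, and they were treated as unpaired. Their deviations correlated at 0.028, which cannot show whether they shared mice or a day. The 28 lists of other experiments and antibodies were not used here. Values of 1 called region and of a few other regions are not reported here.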

Additional observations from a re-analysis of the deposited data

Results flagged for a closer look

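The intronic Gna14 region is the 1 result at which the IL-4 change differed between antibodies by a test of the difference itself: HDAC2 minus HDAC1 was −3.20 (log2), with HDAC2 lower and HDAC1 higher after IL-4. Neither change passed alone (adjusted p = 0.16 for HDAC2 and 0.15 for HDAC1), and the call was absent without centring without any 1 of the HDAC2 samples and without 3 of the 4 HDAC1 samples. Groups of 2 samples are too small for a test of single outlying samples.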

How the results depend on the processing

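Of the settings tried, merging distance, a 50% overlap and the removal of (TTAGGG)n, satellite and mitochondrial peaks kept the counts of higher and lower regions within 1.5 times, whereas removing the (CATTC)n and (GAATG)n peaks, which carry the lower calls, left 18 higher and 0 lower. Higher and lower regions numbered 533 and 438 unadjusted, 2 and 0 without centring, 9 and 0 with quantile normalization, 12 and 0 with cyclic loess, 3 and 0 without the variance trend and 1 and 0 when a peak in at least 2 lists sufficed (169 to 1252 lower unadjusted), and a score of at least 5 gave 14 higher regions. Leaving out 1 sample at a time gave 1 to 14 higher, 0 to 3 lower, 2914 to 7331 gained and 1642 to 4085 lost regions. The difference in peak number (1671.5 more after IL-4) ran from −2495.5 to 5838.5 and that in promoter share from −0.285 to 2.40 percentage points, both reversed without IL-4 replicate 1. Regions that differed from HDAC1 numbered 449 unadjusted, 0 without centring and 0 to 1 with 1 of the 8 samples left out (1 only without HDAC1 IL-4 replicate 2), and from HDAC3 310 unadjusted, 0 to 2 with 1 sample left out (2 only without HDAC3 ctrl replicate 1) and 0 without centring, with quantile normalization and with the block. With the replicate number as a block, 25 regions were higher, 2 lower and 1 differed from HDAC1, and 23 of the 26 named regions kept their call. With a pair of samples per group and no reads, changes of 1 log2 unit were mostly not detectable. The cause of these dependences was not tested.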

Other observations

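Among the regions compared with HDAC3, the smallest p of the difference belonged to a region 15514 bp upstream of Nabp1, a single-stranded DNA-binding protein gene. HDAC3 scores there were 9.63 and 4.46 in ctrl and 53.08 and 48.51 after IL-4, while HDAC2 scores were 18.74 and 14.59 against 27.46 and 17.83 (difference −2.29, adjusted p = 0.23). The region was picked after its value was seen, and the difference did not pass the test except without HDAC3 ctrl replicate 1 (adjusted p = 0.038). HDAC3 is as labelled, with its antibody in doubt.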
